A study of Mus musculus with 8 samples.

Results

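CT26-FL3 is a mouse colon cancer line that was selected in mice by repeated passage of the parental line CT26 through the liver, and the genes described here are the Toll-like receptors and their closest partners, 10 genes in all: the co-receptors Cd14 and Ly96, the receptors Tlr1 to Tlr6, and the adaptors Myd88 and Ticam1. They were taken by symbol from the array annotation, which gave 13 of 41174 gene probes and 40 of 43379 gene spots per array. Of the 10 genes, 8 had a probe above the detection limit on all 8 arrays and were among the 15097 features tested. Tlr1 and Tlr5 stayed below the limit on every array.

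Gene expression was measured on 1-colour Cy3 arrays in 4 samples of CT26-FL3, labelled as highly metastatic to the liver, and in 4 samples of CT26, labelled as poorly metastatic. Both lines derive from Balb/c mice, labelled male, and carry no treatment or engineered allele in the labels. Liver lesions of CT26-FL3 were excised, digested and grown briefly in culture to shed stroma, and the labels do not say whether the line was cloned. The design text calls the samples independent without saying whether they were separate cultures, so the spread between them may be technical.

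Toll-like receptors recognise conserved microbial molecules and some molecules released from damaged tissue. Lipopolysaccharide is handed by CD14 to MD-2, the product of Ly96, which sits on TLR4. TLR2 pairs with TLR1 or TLR6 to bind lipoproteins, TLR5 binds flagellin, and TLR3 binds double-stranded RNA in endosomes. MyD88 serves all of these receptors except TLR3, which signals through TRIF, the product of Ticam1; TLR4 uses both adaptors. Both routes lead to NF-kappaB and to interferon regulatory factors. Intestinal epithelium is known to carry several of these receptors at low levels, and CD14 is best known from macrophages and monocytes.

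Values are given as scaled intensity, in which every array was brought to the same 75th percentile (888 units), and the detection limit then lay between 14.02 and 25.5 units. The number of arrays limits the precision. Levels of different probes cannot be set against each other, because probes differ in brightness. The genes were proposed with the difference between the lines already known, so their differences are given as a description, with a standard error and without a p-value. In a fit across all features with limma, 4 of the 8 genes passed the threshold of 0.05 for the adjusted p, 1 higher and 3 lower in CT26-FL3. Of all 15097 features 49.5% passed, 24.1% higher and 25.3% lower, and nothing is read from the count of 4. The arrays of the lines did not overlap for those same 4 genes, and for 47.4% of all features. By probe, 6 of the 10 kept member probes did not overlap, and neither did 46% of the 23068 kept probes.

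The 3 genes of lipopolysaccharide recognition were all lower in CT26-FL3, by unequal amounts. Cd14, the co-receptor that delivers lipopolysaccharide, had 2743, 3064, 3029 and 3062 units in CT26-FL3 replicates 1 to 4, against 8073, 8351, 7861 and 8134 units in CT26 replicates 1 to 4. Its level in CT26-FL3 was 2.73-fold lower (log2 difference -1.45, SE 0.05, n = 4 per line), and it was well above the detection limit in both lines. The highest CT26-FL3 array lay far below the lowest CT26 array. CT26-FL3 replicate 1 lay apart from the other 3 arrays of its line, and without it the log2 difference was -1.41.

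Ly96, which encodes MD-2, the subunit of the receptor complex that holds the lipid part of lipopolysaccharide, had 1042, 1104, 1082 and 947 units in CT26-FL3, against 1482, 1376, 1427 and 1418 units in CT26. All 4 CT26-FL3 arrays were below all 4 CT26 arrays, with a log2 difference of -0.45 (SE 0.06), which is 1.37-fold lower. Tlr4, the signalling receptor of the complex, had 1433, 1447, 1499 and 1469 units in CT26-FL3, against 1661, 1828, 1653 and 1773 units in CT26. Again the lines did not overlap, and the log2 difference was -0.24 (SE 0.05), or 1.18-fold lower. Its probe was printed 10 times on each array, and these spots ranged from 1300 to 1637 units in CT26-FL3 and from 1400 to 2064 units in CT26. Single spots of the lines thus overlapped while the array means did not, and the coefficient of variation among the 10 spots of an array was 4.67% to 6.24% in CT26-FL3 and 5.17% to 7.94% in CT26. A second Tlr4 probe, annotated to a skin cDNA clone, stayed below the limit on every array (at most 11.6 units in CT26-FL3 and 9.90 units in CT26), so it gives no second measure of the gene.

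**Figure D1:**
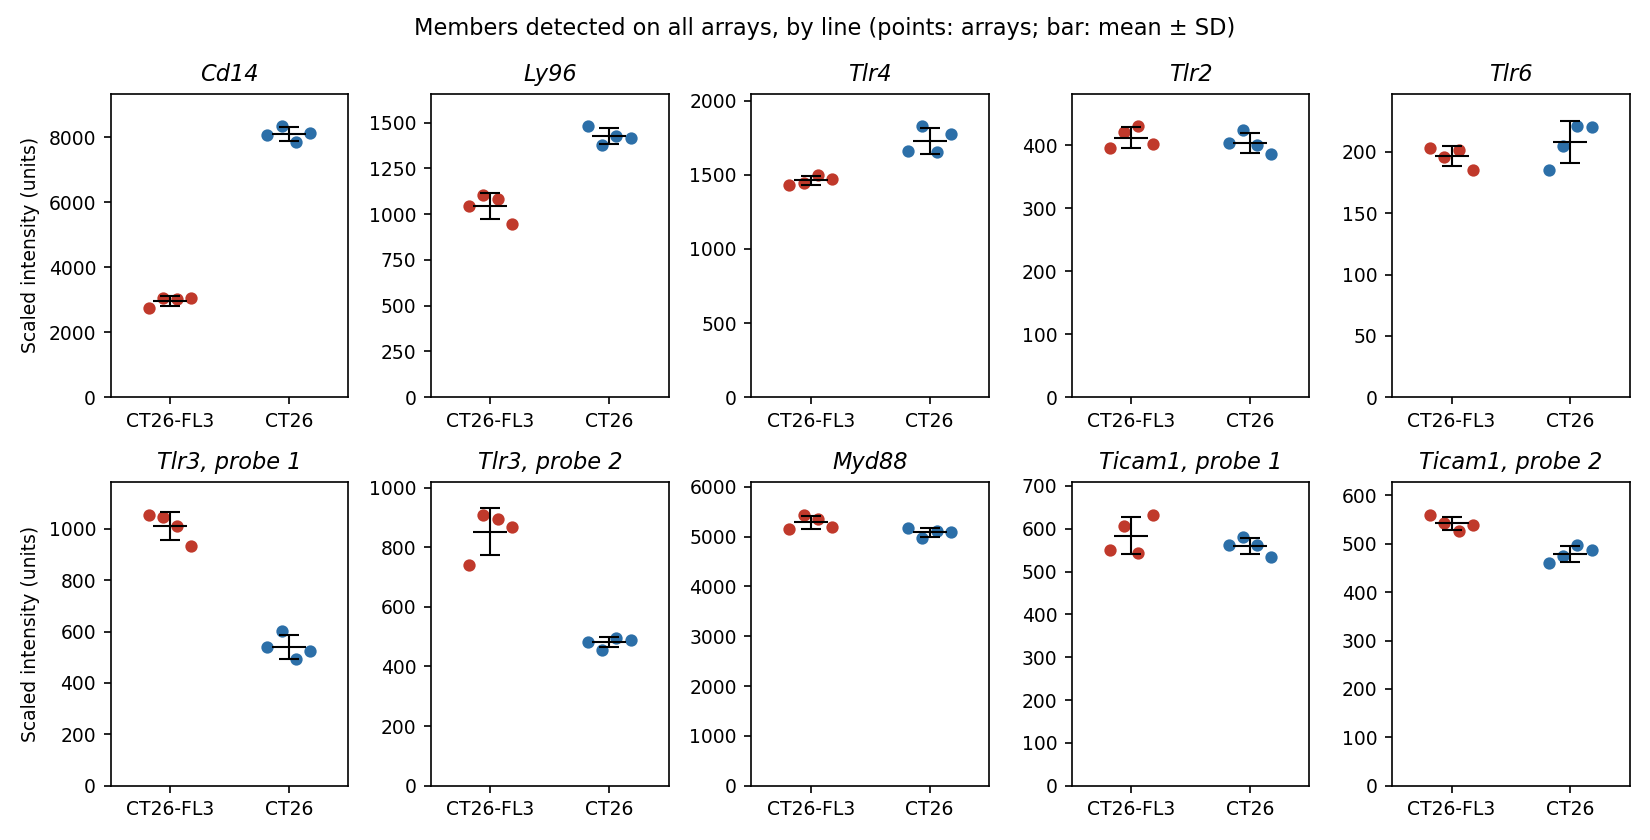
Scaled intensity (units, linear axis from 0) of the 8 members detected on all arrays, by probe, in CT26-FL3 and CT26; points are arrays, bars are mean ± SD, n = 4. Cd14, Ly96 and Tlr4 lie lower in CT26-FL3 with no overlap, both Tlr3 probes lie higher, and Tlr2, Tlr6, Myd88 and the brighter Ticam1 probe overlap between the lines.

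Tlr2, the receptor for bacterial lipoproteins, was at nearly the same level in both lines. It had 395, 420.4, 430.1 and 401 units in CT26-FL3, against 403, 424, 399 and 386 units in CT26. The ranges overlapped almost fully, and the log2 difference was 0.03 (SE 0.05). This probe too was printed 10 times per array, with spots from 368 to 472 units in CT26-FL3 and from 358 to 457 units in CT26. The sign of the difference was not stable, with -0.02 from replicates 1 and 2 and 0.08 from replicates 3 and 4.

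Tlr6, a partner of TLR2 for diacylated lipoproteins, had 203, 196, 202 and 185 units in CT26-FL3, against 185, 205, 221 and 221 units in CT26. The lines overlapped, and the log2 difference was -0.08 (SE 0.07), with 0.03 in replicates 1 and 2 and -0.19 in replicates 3 and 4. Tlr1, the other partner of TLR2, gave 3.54 to 6.94 units in CT26-FL3 and 2.31 to 7.66 units in CT26, all below the limit. Tlr5, the flagellin receptor, gave 7.12 to 15.97 units in CT26-FL3 and 6.66 to 16.4 units in CT26, also below the limit on every array. For Tlr1 and Tlr5, each with 1 probe, no difference can therefore be stated in either direction.

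**Figure D2:**
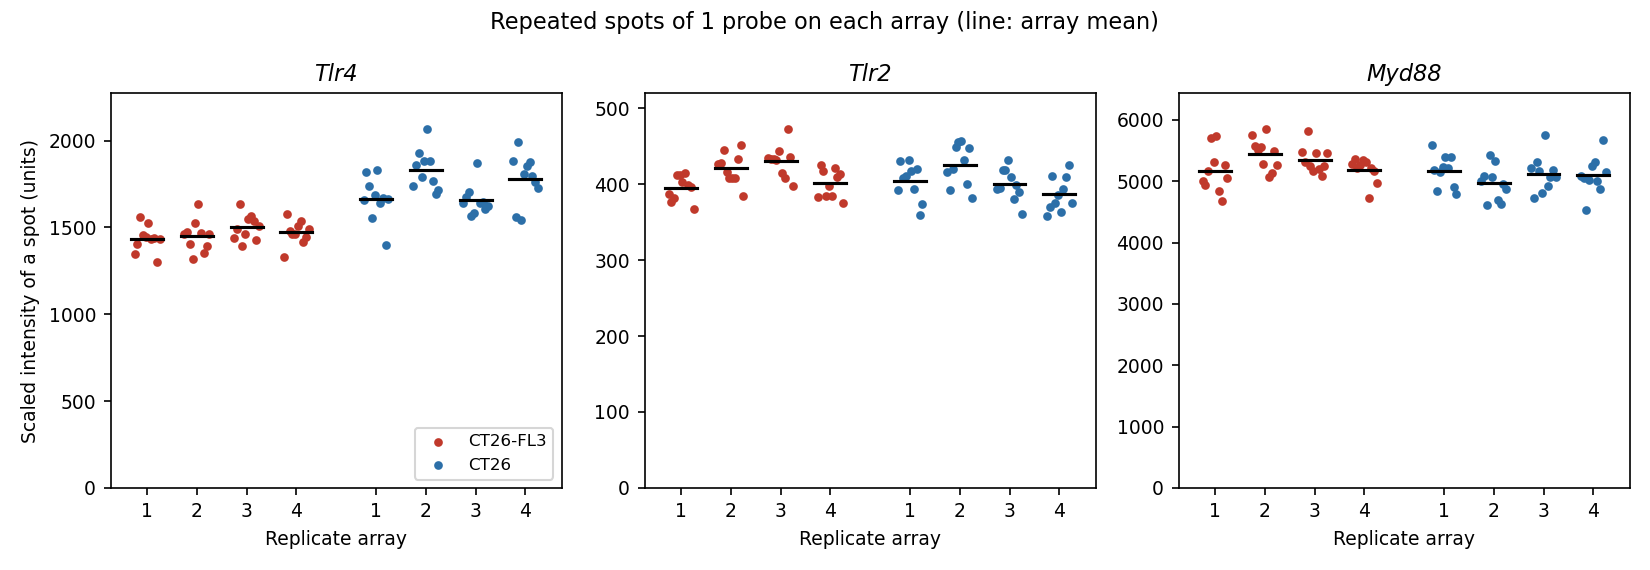
Scaled intensity (units, linear axis from 0) of the 10 spots of the Tlr4, Tlr2 and Myd88 probes on each array, CT26-FL3 arrays left of CT26 arrays; each point is a spot and each line the mean of an array. The Tlr4 array means of CT26-FL3 (1433 to 1499 units) lie below those of CT26 (1653 to 1828 units), although single spots overlap, while the Tlr2 and Myd88 means of the lines overlap.

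Tlr3, the endosomal receptor for double-stranded RNA, was the single member higher in CT26-FL3 among the 4 that passed. Its brighter probe had 1055, 1045, 1013 and 934 units in CT26-FL3, against 540.2, 602, 494 and 522 units in CT26. Its second probe had 739, 910.0, 895 and 867 units in CT26-FL3, against 483, 457, 496 and 490.3 units in CT26. On both probes every CT26-FL3 array was above every CT26 array. The log2 difference was 0.91 (SE 0.07) on the brighter probe and 0.82 (SE 0.07) on the second, or 1.88-fold and 1.77-fold. The probes are different reporters of 1 gene on the same arrays, so they repeat the measurement but not the samples.

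Promoter windows from 250 bases before to 50 after the start of transcription were read for 7 of the 10 members (9 windows) among RefSeq sequences (GRCm38.p6), and not for Cd14, Ly96 and Tlr4. They were searched on both strands for the core of the interferon response element, spelled GAAA, any 2 bases, GAAA, because Tlr3 is known as an interferon-inducible gene. An exact match occurred in 3.44% of all 32851 windows of this length, and a match with at most 1 differing letter in 35.4%. The windows of Tlr3, which differed between the lines, and of Myd88, which did not pass, are shown with the matching letters in capitals. A stretch of one Tlr6 window is added because it holds overlapping exact matches, which its capitals mark together.
Tlr3 (chr8:45410331-45410630, minus strand): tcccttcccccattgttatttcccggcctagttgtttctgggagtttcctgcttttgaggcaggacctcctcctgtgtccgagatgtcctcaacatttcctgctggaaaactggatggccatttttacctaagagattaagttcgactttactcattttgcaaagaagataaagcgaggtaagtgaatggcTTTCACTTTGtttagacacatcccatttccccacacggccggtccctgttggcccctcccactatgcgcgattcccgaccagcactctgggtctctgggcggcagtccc
Myd88 (chr9:119339969-119340268, minus strand): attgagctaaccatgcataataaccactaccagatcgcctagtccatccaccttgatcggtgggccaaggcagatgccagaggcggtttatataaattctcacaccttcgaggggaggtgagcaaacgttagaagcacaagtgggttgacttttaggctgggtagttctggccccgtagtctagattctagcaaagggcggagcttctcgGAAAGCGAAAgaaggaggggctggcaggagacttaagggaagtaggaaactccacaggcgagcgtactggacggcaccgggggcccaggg
Tlr6 (within chr5:64959117-64959416, minus strand): ctattctTTTCTCTTTCACTTTCtgtttga
Myd88 held 1 exact match, at bases -40 to -31 from the start. Tlr6 held overlapping exact matches at -116 to -107 and at -110 to -101, both on the opposite strand. Tlr3 held no exact match and 1 match with a differing letter, at -59 to -50 on the opposite strand. Matches with a differing letter also occurred in windows of Tlr1, Tlr2, Tlr5 and Tlr6, which did not pass (Tlr2, Tlr6) or were not detected (Tlr1, Tlr5). Matches of these letters are a description of the windows and were not tested as binding sites.

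A second set of letters, GGG, any 5 bases, CC, stands for the NF-kappaB site and is loose, since 50.8% of all windows held it. It was present in windows of Tlr2, Tlr3, Tlr5, Tlr6 and Ticam1. The stretch of Tlr2 at -172 to -163 is shown as an example that reads as a match on both strands, as does its stretch at -8 to 2.
Tlr2 (within chr3:83841559-83841858, minus strand): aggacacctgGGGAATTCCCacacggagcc

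The shared adaptors were at close levels in both lines. Myd88, the adaptor of all members of the receptor family except TLR3, had 5161, 5441, 5344 and 5187 units in CT26-FL3, against 5163, 4962, 5115 and 5088 units in CT26. The lines overlapped only through CT26-FL3 replicate 1 and CT26 replicate 1, and the log2 difference was 0.06 (SE 0.04). Ticam1, which encodes TRIF, was measured by 2 probes that differed in whether the lines overlapped. The brighter had 551, 605, 543 and 633 units in CT26-FL3, against 561, 581, 562 and 535 units in CT26, with overlap and a log2 difference of 0.06 (SE 0.06). The second had 560.4, 543, 527 and 539.7 units in CT26-FL3, against 459, 474, 497 and 488 units in CT26, without overlap and with a log2 difference of 0.18 (SE 0.05). On this second probe the difference was 0.24 in replicates 1 and 2 and 0.12 in replicates 3 and 4.

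The arrays fall into sets by a number in their file names, with replicates 1 and 2 of both lines in one set and replicates 3 and 4 in the other. For the 4 genes whose arrays did not overlap, the direction in each set is fixed by that and adds no support. The log2 difference of Cd14 was -1.50 and -1.39 in the sets, that of Ly96 -0.41 and -0.49, that of Tlr4 -0.28 and -0.21, and that of Tlr3 0.88 and 0.94 on the brighter probe. In the authors' deposited table of log2 values, made from the same arrays, the differences were -1.42 for Cd14, -0.45 for Ly96, -0.24 for Tlr4 and 0.91 for Tlr3.

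**Figure D3:**
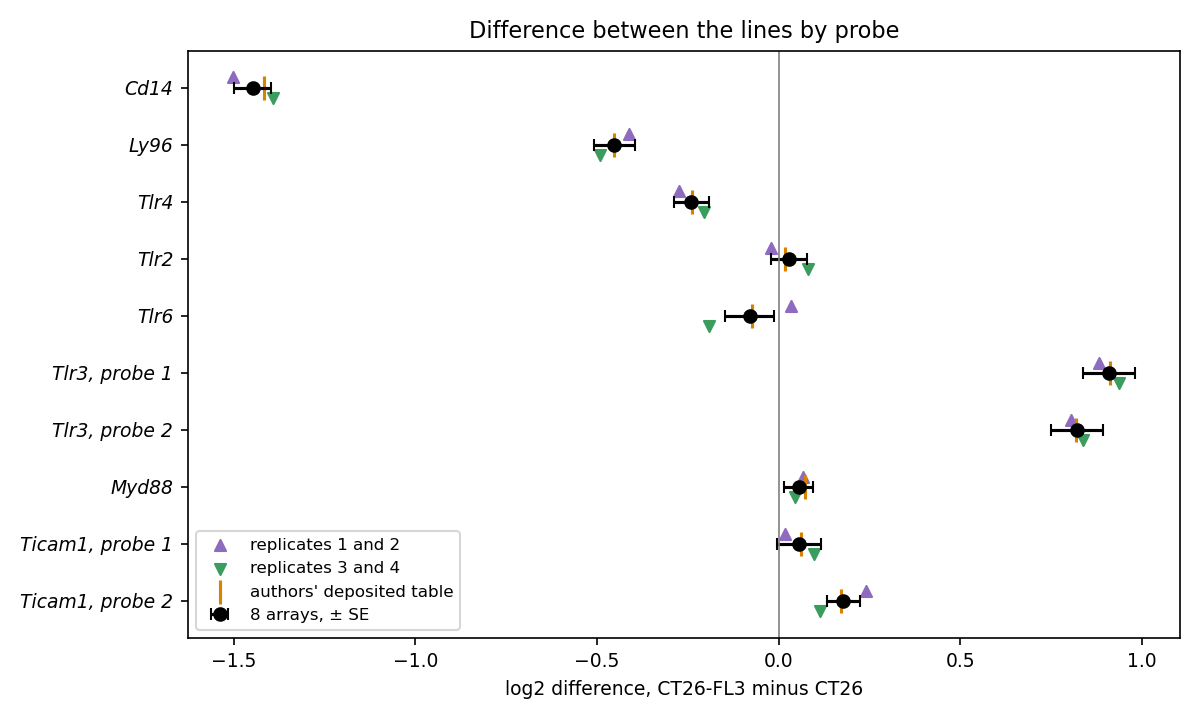
Log2 difference (CT26-FL3 minus CT26) of each kept member probe over all 8 arrays with its SE, within replicates 1 and 2, within replicates 3 and 4, and in the authors' deposited table. Cd14, Ly96 and Tlr4 lie left of 0 and both Tlr3 probes right of 0 in all 4 readings, which share the same arrays, while Tlr2 and Tlr6 lie on both sides.

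Across the 8 arrays, the genes whose values followed those of Cd14 most closely in the same direction were Serp2 (Pearson r = 0.9996), Ak3 (0.9989) and Plac9a (0.9988), among genes with a proper symbol that were above the limit on all arrays. Their log2 differences were -1.97, -1.81 and -3.20. With 4 arrays in each of 2 separate clusters, such a correlation mostly restates the gap between the lines.

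The remaining Toll-like receptors could be described in part. Tlr7, the endosomal receptor for single-stranded RNA, fell in CT26-FL3. It had 85.1, 100.4, 93.2 and 93.4 units in CT26-FL3, against 216, 213, 199.8 and 199.9 units in CT26, with no overlap. The log2 difference was -1.16 (SE 0.06, limma adjusted p = 1.07e-06). Tlr9, the receptor for unmethylated DNA, did not pass (-0.10, SE 0.05, adjusted p = 0.131 in the same limma fit). Tlr8 stayed below the limit on every array, and no probe was assigned to Tlr11, Tlr12 or Tlr13.

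Of 10 genes listed as accessory to these receptors, 5 were tested, of which 1 rose and 4 fell. Their median log2 difference was -0.20 against -0.01 over all features, of which 49.5% passed. Most of the products help the receptors fold, travel or bind, but that of Cd47, 1 of the 4 falls, is not known for this. The folding factors Cnpy3 and Cnpy4 fell by 0.26 (SE 0.05, limma adjusted p = 0.00289) and by 0.45 (SE 0.06, adjusted p = 0.000267). Unc93b1, which carries nucleic acid receptors to endosomes, fell by 0.20 (SE 0.05, adjusted p = 0.00634 with limma), and the chaperone Hsp90b1 rose by 0.25 (SE 0.04, adjusted p = 0.00132). Cnpy3 did not pass within replicates 3 and 4 (limma adjusted p = 0.155) or with a replicate block by title numbers (adjusted p = 0.0755). Unc93b1 did not pass with median centring (adjusted p = 0.0618) or within either set of arrays (adjusted p = 0.123 and 0.13). A second probe of Hsp90b1 gave -0.14, and with the mean of its probes the gene did not pass (adjusted p = 0.356). Cd47 fell by 0.14 (adjusted p = 0.0307), but its kept probes ranged from -0.14 to 0.23 and it did not pass in 15 of 23 alternatives. The lipopolysaccharide carrier Lbp, the scavenger receptor Cd36 and Ly86, which encodes the MD-2-like protein MD-1, stayed below the limit on every array. Cd180, whose TLR4-like product pairs with MD-1, was above the limit on 1 CT26 array alone.

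Downstream of the receptors, 31 of 32 adaptors, kinases and transcription factors were tested, of which 11 rose, 4 fell and 16 did not pass, with a median log2 difference of 0.07. The share past the threshold, 48.4%, was close to the 49.5% of all features. The ubiquitin ligase gene Peli2 rose, with 1745 ± 114 units in CT26-FL3 and 665 ± 13.9 units in CT26 (SD, n = 4 each). Its log2 difference was 1.39 (SE 0.06, limma adjusted p = 2.4e-07). Its relative Peli1 rose by 0.51 (SE 0.08, adjusted p = 0.000929), chosen after its value was seen, while Peli3 fell by 1.17 (SE 0.11, adjusted p = 3.82e-05 with limma). With a constant of 50 units added before the logarithm, the difference of Peli3 was -0.68. The transcription factor Irf5, which acts downstream of MyD88, rose by 0.94 (SE 0.05, adjusted p = 1.64e-06), the kinase gene Ikbke by 0.84 (SE 0.08, adjusted p = 4.79e-05) and the TAK1-binding gene Tab2 by 0.53 (SE 0.06, adjusted p = 0.000113).

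The kinases and adaptors nearest to the receptors differed little. The bridging adaptor Tirap (0.05), the kinases Irak1 (-0.08) and Irak2 (0.03) and the ubiquitin ligase Traf3 (0.12) did not pass in the limma fit, with adjusted p = 0.53, 0.226, 0.711 and 0.0637. Irak4 rose by 0.20 (SE 0.05, adjusted p = 0.0154), Traf6 by 0.24 (SE 0.06, adjusted p = 0.0134) and Irf3 by 0.17 (SE 0.05, adjusted p = 0.0143). Second probes of Irak4 and Irf3 gave -0.04 and -0.10, and with the mean of the probes neither passed (adjusted p = 0.398 and 0.524). Traf6 did not pass in 4 of 23 alternatives (adjusted p = 0.0537 to 0.294). Ticam2, the adaptor that links TLR4 to TRIF, stayed below the limit on every array.

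Of 20 negative regulators 17 were tested, of which 8 rose, 4 fell and 5 did not pass, with a median log2 difference of 0.09. That is 70.6% past the threshold, against 49.5% of all features. The falls numbered 2 without CT26 replicate 1, CT26 replicate 3, CT26-FL3 replicate 1 or CT26-FL3 replicate 3. The stress-induced repressor Atf3 rose by 2.06 (SE 0.05, limma adjusted p = 2.13e-08), the interferon-induced protease gene Usp18 by 0.74 (SE 0.05, adjusted p = 5.42e-06), the IL-33 receptor gene Il1rl1 by 0.56 (SE 0.05, adjusted p = 2.59e-05) and the decoy receptor gene Sigirr by 0.39 (SE 0.06, adjusted p = 0.000714). The MAP kinase phosphatase gene Dusp1 fell by 0.88 (SE 0.06, adjusted p = 7.74e-06). Tollip, which restrains IRAK signalling, fell by 0.13 (SE 0.05, adjusted p = 0.0375) and did not pass in 14 of 23 alternatives, among them the file-name set as a block (adjusted p = 0.0512). Irak3, an inhibitory kinase best known from macrophages, stayed below the limit on every array.

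**Figure D4:**
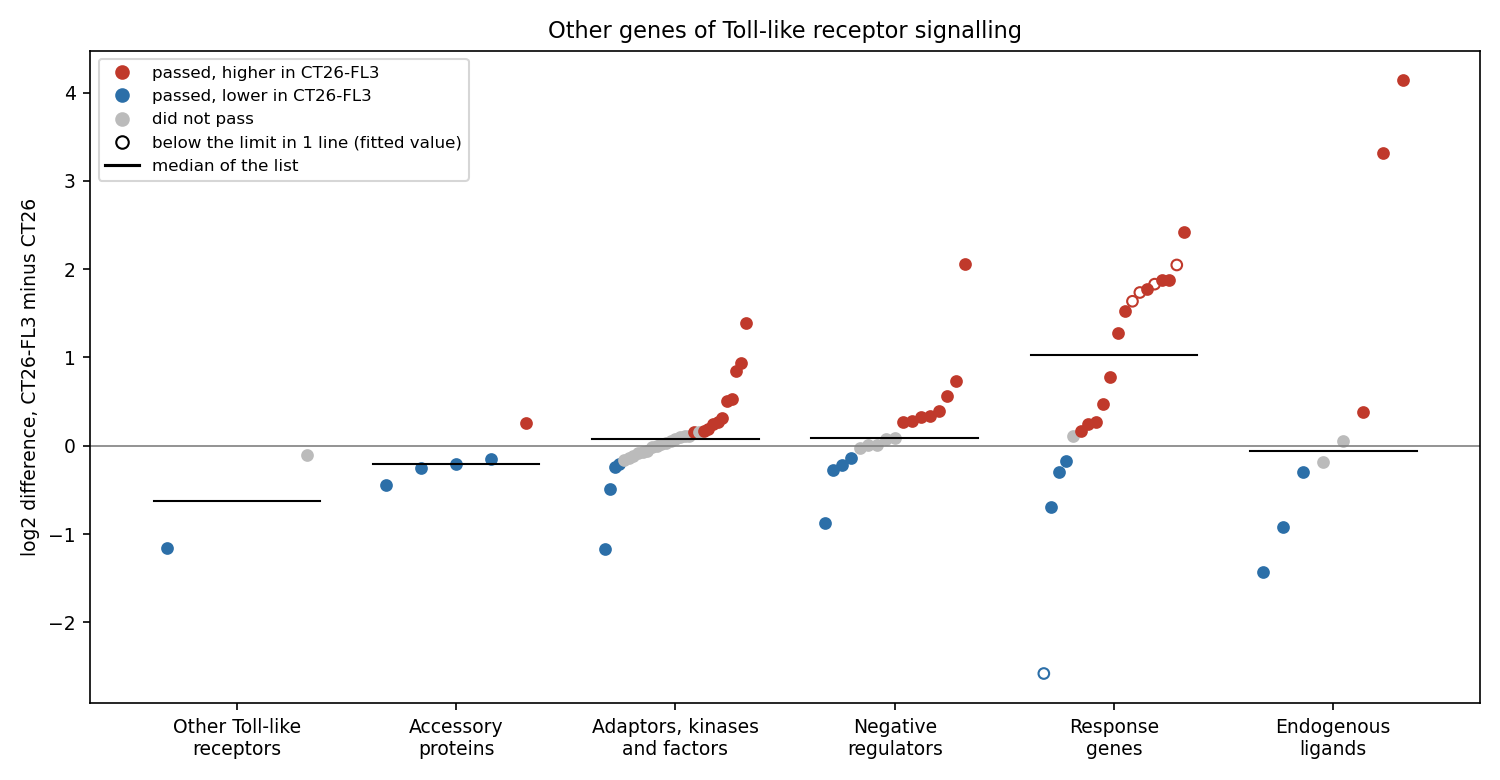
Log2 difference (CT26-FL3 minus CT26) of each tested gene in the 6 lists of other signalling genes, coloured by the result of the limma fit; open circles are fitted values of genes below the limit in 1 line and horizontal lines are list medians. The response genes have a median of 1.03, against -0.01 over all features, and the other lists spread to both sides of 0 except the other Toll-like receptors, whose 2 tested genes lie below it.

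Genes that are classically induced by Toll-like receptors in other cells were mostly higher in CT26-FL3. Of 30 such genes 20 were tested, of which 15 rose, 4 fell and 1 did not pass, that is 95.0% past the threshold against 49.5% of all features. Of the 20 genes, 7 were not above the limit on all 8 arrays, among them 5 that were below it throughout 1 line and so entered the fit through the other line alone. Requiring all 8 arrays left 10 that rose and 2 that fell, and 2 fell also without CT26 replicate 1 or without CT26-FL3 replicate 1. Their median log2 difference was 1.03, or 0.75 with the 5 genes that were below the limit in 1 line set to their bound, against -0.01 over all features. The list was written with earlier results of these arrays known and includes genes that other signals induce as well.

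Interleukin 6, Il6, had 109.6, 118, 107 and 108 units in CT26-FL3, against 31.0, 31.0, 30.1 and 28.1 units in CT26. No array of one line reached those of the other, and the log2 difference was 1.88 (SE 0.05, limma adjusted p = 3.83e-08). With a constant of 50 units added before the logarithm, which draws dim values together, it was 1.03. The interferon-induced chemokine gene Cxcl10 was bright in both lines, with 68861 ± 1959.9 units in CT26-FL3 and 23999 ± 1408 units in CT26 (SD, n = 4 each), and rose by 1.52 (SE 0.05, adjusted p = 1.09e-07). Interferon beta, Ifnb1, a target of the TRIF branch, had 695, 743, 737 and 678 units in CT26-FL3, against 299.8, 315, 283 and 276 units in CT26. It rose by 1.28 (SE 0.06, adjusted p = 4.66e-07 with limma), again without overlap; it and Cxcl10 were chosen after their values were seen.

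The tumour necrosis factor gene Tnf had 47.1, 48.6, 37.95 and 45.5 units in CT26-FL3, against 12.7, 12.4, 8.88 and 9.66 units in CT26, where it stayed below the limit on every array. It was at least 2.47-fold higher in CT26-FL3 (limma adjusted p = 4.24e-06), but it entered the fit through CT26-FL3 alone, and the p rests in part on values below the limit. Where a gene was below the limit, the bound used, on each array, its own value or the dimmest detected probe, whichever was higher. Ccl4 rose by 1.88 (SE 0.09, limma adjusted p = 5.45e-07), or by 1.04 with the constant of 50. Cxcl5 had 65.4 ± 1.91 units in CT26-FL3 and 12.4 ± 2.55 units in CT26 (SD, n = 4 each), where 3 arrays were below the limit. Its fitted difference of 2.42 (SE 0.14, adjusted p = 2.47e-06 with limma) therefore rests on background values, and it was 0.93 with the constant of 50. In the other direction Ccl20, not above the limit in CT26-FL3, was at least 2.98-fold lower there (adjusted p = 0.000777), with the same limit on its p, since it entered the fit through CT26 alone. The interleukin 1 genes Il1a and Il1b and the nitric oxide synthase gene Nos2 stayed below the limit on every array.

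**Figure D5:**
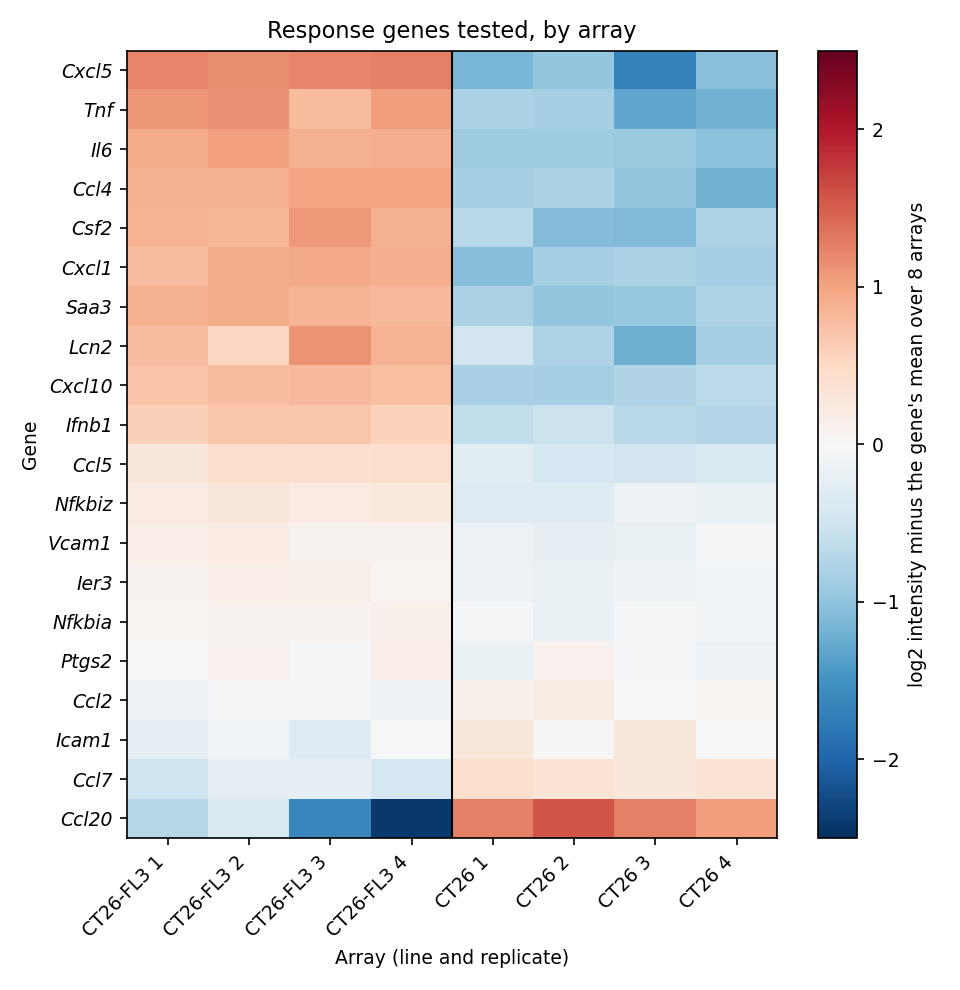
Log2 intensity of the 20 tested response genes on each array, minus the mean of the gene over the 8 arrays (colour scale), with CT26-FL3 arrays left of CT26 arrays and genes in order of their difference. Of these genes 15 rose and 4 fell in CT26-FL3; Tnf, Csf2, Saa3 and Lcn2 were below the detection limit on all CT26 arrays and Ccl20 on all CT26-FL3 arrays.

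Of 10 genes whose products are described as endogenous ligands of TLR2 or TLR4, 8 were tested, of which 3 rose and 3 fell, or 75% past the threshold against 49.5% of all features. The matrix proteoglycan decorin, Dcn, rose by 3.32 (SE 0.04, limma adjusted p = 1.12e-09). Tenascin C, Tnc, had 269, 269, 279 and 277 units in CT26-FL3, against 13.6, 20.9, 14.9 and 13.9 units in CT26, where 3 arrays were below the limit. Its fitted difference of 4.14 (SE 0.13, adjusted p = 5.77e-08 with limma) rests on those background values and was 2.33 with the constant of 50. Only 1 of 5 Tnc probes was kept, the others being above the limit on fewer than 4 arrays. Fibronectin, Fn1, rose by 0.39 (SE 0.07, adjusted p = 0.00135) and did not pass within replicates 3 and 4 (adjusted p = 0.0554). The calprotectin subunit gene S100a8 fell by 1.42 (SE 0.08, adjusted p = 1.6e-06) and biglycan, Bgn, fell by 0.92 (SE 0.16, adjusted p = 0.00139). Bgn was close to the limit in CT26-FL3 (20.2 to 31.8 units), and with the constant of 50 its difference was -0.35. Hmgb1, chosen after its value was seen, fell by 0.30 (limma adjusted p = 0.0461).

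Since Cd14 and several other members are typical of macrophages, markers of cells that a liver lesion can hold were read on the same arrays. Of 23 macrophage and Kupffer cell markers, 13 stayed below the limit on every array, among them Adgre1, Itgam and Ptprc. Of the 10 tested, 4 rose and 1 fell in CT26-FL3, a share of 50% past the threshold that is at the 49.5% of all features. The 5 that did not pass were Marco, Tyrobp and C1qb, above the limit on all 8 arrays, and Csf1r and C1qa, above it on some. Tyrobp had 100 units in CT26-FL3 and 98.5 in CT26, and C1qb had 64.1 and 63.9. Mrc1, detected on 3 of the CT26 arrays, rose by 0.99 (adjusted p = 0.000172), Mpeg1 by 0.89 (adjusted p = 0.000176), Aif1 by 0.53 (adjusted p = 0.00963) and Cd68 by 0.38 (adjusted p = 0.00133), all in the limma fit, while Lyz2, not above the limit in CT26-FL3, was at least 2.09-fold lower there. Lyz2, the 1 fall, entered the fit through CT26 alone. The summed intensity of the list ranged from 1167 to 1254 units in CT26-FL3 and from 921 to 1019 units in CT26. This sum adds signals of different probes, and Cd68 was its largest term, with 615 ± 19.8 units in CT26-FL3 and 474 ± 39.6 units in CT26 (SD, n = 4 each). In whole cultures, fewer cells of a type and less RNA per cell cannot be told apart.

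Of the markers of other cells, those of hepatocytes gave 1 rise (Apoa1, 0.24) in 2 tested of 10, those of endothelial cells 2 rises (Tie1, at least 1.64-fold, and Plvap, 0.29) in 4 of 10, and those of T, NK and B cells 1 rise (Lck, 2.28) in 4 of 14. Tie1 was below the limit on every CT26 array, so it entered the fit and the count of its list through CT26-FL3 alone. Those of neutrophils gave 1 rise (Mpo, 0.89) and 1 fall (S100a8) in 2 of 10, and those of fibroblasts and stellate cells 2 rises (Dcn and Fap, 0.93) and 4 falls in 7 of 12, the largest of the falls being that of Col1a1 (-0.76), followed by Cygb (-0.74) and Pdgfrb (-0.47). The shares past the threshold were 50% for hepatocytes, 50% for endothelial cells and 25% for T, NK and B cells. They were 100% for neutrophils and 85.7% for fibroblasts and stellate cells, against 49.5% of all features. With 2 to 7 genes tested per list, nothing is read from these shares. Alb, Pecam1, Thy1, Ncr1 and Cd2 stayed below the limit on every array. Apoa1 did not pass in 6 of 23 alternatives, among them without CT26-FL3 replicate 1 (adjusted p = 0.0608) and without CT26-FL3 replicate 4 (adjusted p = 0.0518). The part of any of these cells in the results was not tested. Of 8 intestinal epithelial markers, Epcam, Cdh1, Krt19, Cdx1 and Vil1 stayed below the limit on all arrays of both lines. Krt8, Krt18 and Cdx2 were tested and rose by 2.23, 1.56 and 1.07, or 100% of 3 tested against 49.5% of all features.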

How the data were processed

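Total RNA of 8 samples was read on 1-colour Agilent arrays after Cy3 labelling. The submitters' processing notes name Agilent Feature Extraction without a version. The authors deposited, per array, the intensity of each spot, a local background and a standard deviation; negative controls had median intensities of 2.23 to 7.43 beside background medians of 21.1 to 24.4, so the intensity was already background-subtracted. A second file the authors deposited holds log2 values, centred per probe with equal column sums. Set against array values centred likewise, its columns gave r of 0.985 to 0.997 over 20853 probes, with column medians of 0.00 in CT26-FL3 replicates 1, 2 and 4, 0.02 in CT26-FL3 replicate 3, -0.01 in CT26 replicates 1 and 3, 0.00 in CT26 replicate 2 and 0.02 in CT26 replicate 4. This settled its scale and direction, while its exact normalization stays unknown.

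Control spots (1639 of 45018) and failed spots (3 to 76 per array) were left out, spots of a probe were averaged as log2, and each array's 75th percentile (808 to 1151 units) was subtracted. The detection limit was set at 2.6 times the median SD of 153 negative controls (16.9 to 23.2 units), with 52.8 to 58.2% of probes above it. Probes above it on at least 4 arrays were kept (23068), and the brightest stood for a gene. Symbols came from the platform annotation, updated by gene identifier for 32524 probes; the files name no genome build. Differences were fitted with limma 3.58.1 under R 4.3.3, two-sided, with Benjamini-Hochberg adjustment over all features, after a check on simulated data. SE is that of the log2 difference. The median difference over all features was -0.01. Across genes, r between arrays of a line was 0.996 to 0.998.

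The members and gene lists were chosen with earlier results of these data known. Named genes were all members, the direct partners of the members and up to 5 genes per list past the threshold with the largest change. Peli1, Cxcl10, Ifnb1, Hmgb1 and the macrophage markers that did not pass were picked with their values in view. So were genes named only as below the limit, apart from the direct partners. Samples were grouped by their sample names, whose replicate numbers are used; titles number CT26-FL3 differently. Alternatives covered scaling, background, a constant, filters, the limit, failed spots, probe choice, the authors' table, blocks and each array left out.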

Additional observations from a re-analysis of the deposited data

Results flagged for a closer look

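In 5 groups of 4 arrays, 4.03% of those examined, 1 array lay apart from the other 3 by Dixon's ratio, where chance flags about 1 in 20 groups. Cd14 in CT26-FL3 replicate 1 had 2743 units, against 3029 to 3064 in the other 3 arrays of the line. Irak1 in CT26-FL3 replicate 4 had 10180 units, against 11190 to 11400 in the others. Traf3 in CT26 replicate 1 had 1948 units, against 2019 to 2029, and Traf3 passed without CT26-FL3 replicate 1 (limma adjusted p = 0.0333), with quantile normalization (0.0407) and in the authors' deposited table (0.0412). Lyz2 in CT26 replicate 2 had 40.5 units, against 35.1 to 35.9. Apoa1 in CT26 replicate 4 had 57.1 units, against 68.8 to 70.0.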

How the results depend on the processing

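Over 23 alternatives, which share arrays, Cd14 had a log2 difference between -1.50 and -1.39, Ly96 between -0.49 and -0.39, Tlr4 between -0.28 and -0.21 and Tlr3 between 0.85 and 0.96 on its brighter probe; Tlr2 and Tlr6 changed sign in 1 alternative each. Of 108 pathway genes 83 were tested, of which 38 rose and 20 fell. That is 69.9% past the threshold, against 49.5% of all features. The count of rises was 25 within replicates 3 and 4; that of falls was 13 with median centring and 9 within either set of arrays, and with each array left out in turn it lay between 13 and 18, with 13 without CT26 replicate 1 and 13 without CT26-FL3 replicate 1. All features past the threshold numbered 7472 of 15097, 6352 with median centring and 6808 to 7123 with each array left out in turn. They numbered 4205 within replicates 1 and 2 and 4183 within replicates 3 and 4, in fits of 2 arrays against 2. Cd47 turned to a log2 difference of 0.015 with the mean of its probes. Of 1185 values of 52 named genes, 63 no longer passed, 3 passed newly and 1 turned. Same-numbered samples of the lines deviated together at r of 0.122, 0.113, 0.0063 and 0.165 by sample name, and at 0.0994, -0.214 and 0.172 by title. Pairs within the same file-name set all had positive r (0.0063 to 0.23), whatever their numbers. Pairs across the sets lay between -0.243 and 0.092, and all but the highest were negative. The deviations thus went with the file-name set, and neither numbering was shown to pair the samples. Blocking on the numbers of the sample names left 13 pathway genes that fell. The title numbers left 11, over 6 arrays, and the file-name set as a block left 19. Genes named as below the limit throughout 1 line have bounds. Others near the limit, such as Bgn, Mrc1, Cxcl5 and Tnc, have fitted differences, which were smaller with the constant of 50 (0.41 for Mrc1). The cause of these changes was not tested.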
